A study of Anopheles gambiae with 60 samples.

Results

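The array used to profile adult *Anopheles gambiae* carries, beside its mosquito and malaria parasite probe sets, 290 probe sets whose identifiers are plain numbers. Of these, 6 were higher in the midgut and whole body of blood-fed females than of males and are described here: 32052_at, 214414_x_at, 209116_x_at, 211696_x_at, 211745_x_at and 209458_x_at. They are 6 of the 22761 probe sets on the array, and they were selected on their levels in the female midgut and the female whole body. Their values in those 2 sample types, against males and other tissues, are therefore a description and carry no test. They had been put forward as probe sets for globin, the protein chain of vertebrate haemoglobin. The intensity table names no gene for any of them, and none of the identifiers was found in the gene reference table used here. The globin description could not be checked, and which RNA each probe set hybridised to was not tested. The ending _x_at, carried by 5 of the 6, is the Affymetrix mark for a set with probes that may also match other sequences. Levels on these sets may therefore not be independent of each other. No probe sequence was at hand, and none is printed.

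Female anopheline mosquitoes take vertebrate blood to supply egg development, whereas males feed on plant sugars. The meal is held in the midgut, inside a peritrophic matrix that the gut lays around it, and is broken down there by trypsins and other proteases over the days that follow. The red cells of the meal are filled with haemoglobin, and young vertebrate red cells still carry globin messenger RNA. The Malpighian tubules are the excretory organ, the carcass holds muscle and fat body, and the ovary takes up yolk after the meal. The arrays read labelled copies amplified from the total RNA of a sample. That RNA can come from the insect or from the gut contents.

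The study hybridised 60 arrays, 4 biological replicates in each of 15 groups: midgut, whole body, carcass, head, Malpighian tubules and salivary gland of females and of males, together with ovary, testis and male accessory gland. According to the methods, only the females were blood-fed; they were not mated, and each replicate pooled RNA from several mosquitoes at 24, 48 and 72 h after the meal, while the males were siblings of the same age. The sample labels give an age of 5 days and mention the blood meal without separating the sexes, and no strain is given. The midgut was dissected free of foregut, hindgut and tubules; the carcass was the thorax and abdomen left after the other tissues had been taken, and whole bodies were not dissected. Because RNA from the 3 time points was pooled, no value can be assigned to a stage of digestion, and in pooled tissue a larger amount of a material and more RNA in each cell cannot be told apart.

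Levels are log2 intensities. The authors normalized the arrays within each tissue, both sexes together, so that females and males of a tissue share a scale but different tissues do not. The lowest intensity lay between 5.09 and 5.28 on all arrays, and a probe set was called detected in a group at log2 5 (intensity 32) or above on at least 3 of the 4 arrays. By this limit, 3554 to 5827 probe sets reached log2 5 on an array. No gene names were available, so the labelled tissues could not be checked against marker genes.

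In the female midgut all 6 probe sets were detected, and in the male midgut none was. Of all 22761 probe sets, 3519 were detected in the female midgut and 3567 in the male midgut. Detection of the 6 in the female midgut follows from their selection. 32052_at had levels of 14.66, 14.88, 14.58 and 14.47 in replicates 1 to 4 of the female midgut, against 2.99, 3.15, 2.88 and 2.98 in the male midgut. The female arrays lay within 0.42 of each other and were all far above the male arrays, which stayed under the detection limit. The means were 14.65 ± 0.176 in females and 3.001 ± 0.113 in males (SD, n = 4 each), a difference of 11.65 on the log2 scale. With the male arrays set to the limit of log2 5, the female level was at least 802-fold higher. The brightest probe set of any kind on these female arrays was at 15.20 to 15.28, and whether 32052_at was close to saturation was not tested.

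The next 3 probe sets, all ending in _x_at, were bright in the female midgut and more variable between replicates. 214414_x_at had levels of 10.89, 12.28, 10.50 and 10.70 in the female midgut, against 3.04, 3.10, 2.83 and 3.30 in the male midgut. 209116_x_at had levels of 10.67, 12.20, 10.53 and 9.62 in the female midgut, against 3.05, 3.58, 3.13 and 3.03 in the male midgut. 211696_x_at had levels of 10.57, 12.03, 10.53 and 9.36 in the female midgut, and it was at 2.53 on all 4 male midgut arrays. For each of the 3, replicate 2 of the female midgut was the highest array, and the sexes did not overlap. The differences in mean were 8.03 for 214414_x_at, 7.56 for 209116_x_at and 8.09 for 211696_x_at. Against the limit these are at least 68.2-fold, 54.0-fold and 49.3-fold higher in females.

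The remaining 2 probe sets were only just above the limit. 211745_x_at had levels of 6.06, 6.57, 6.36 and 6.26 in the female midgut, against 3.23, 2.77, 2.55 and 3.70 in the male midgut. 209458_x_at had levels of 5.60, 6.59, 5.99 and 5.58 in the female midgut, against 3.33, 3.33, 3.33 and 3.50 in the male midgut. Again no female array overlapped a male array. The differences in mean were 3.25 and 2.57, which amount to at least 2.48-fold and at least 1.92-fold against the limit. In the linear model of all detected probe sets, 575 of 3899 (14.7%) were at least 2-fold higher in the female midgut at an adjusted p under 0.05 (limma, Benjamini-Hochberg). All 6 probe sets met that threshold, which follows from how they were selected. Of all 22761 probe sets, 609 were at least 1 higher in the female midgut without overlap of the sexes. All 6 were among them, which likewise follows from the selection.

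**Figure D1:**
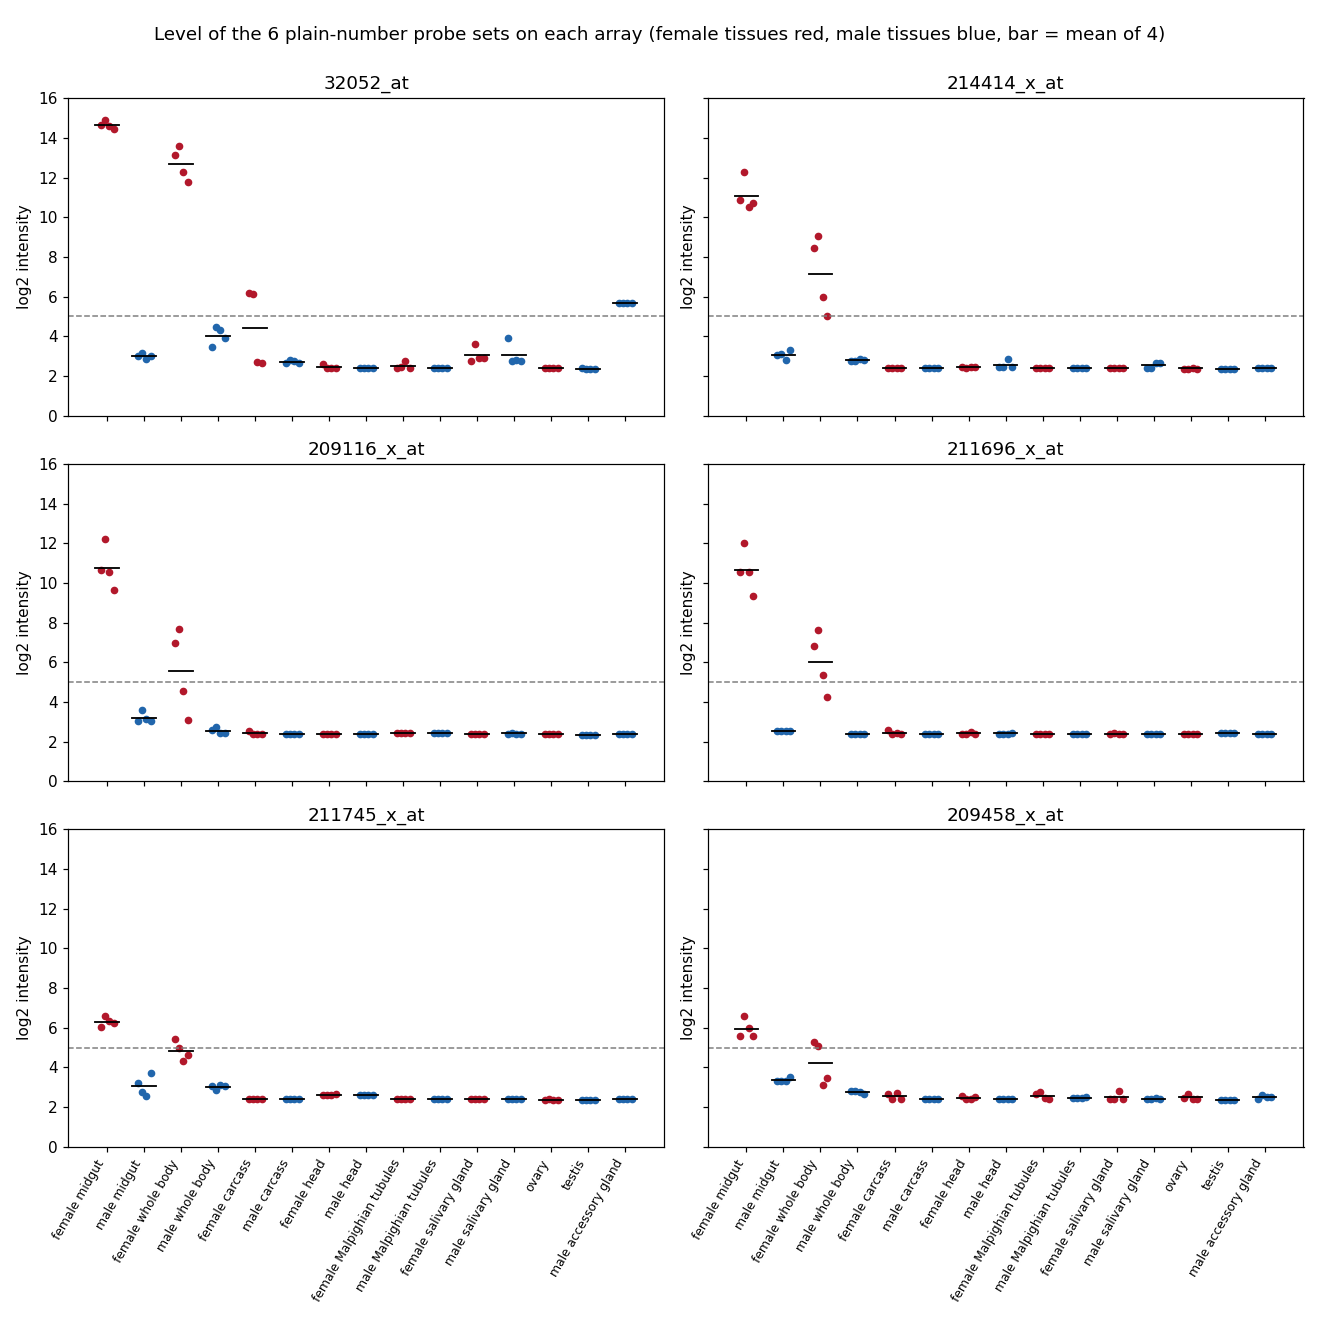
Log2 intensity of the 6 probe sets (one panel each) on every array of the 15 groups along the x axis; points are single arrays, black bars the mean of 4 arrays, red female and blue male tissues, and the dashed line the detection limit of log2 5. All 6 are above the limit in the female midgut, lower and more spread in the female whole body, and elsewhere only 32052_at reaches the limit, in 2 female carcass arrays and in the male accessory gland.

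The female whole body held the same 6 probe sets at lower levels and with more spread. 32052_at had levels of 13.14, 13.60, 12.28 and 11.76 in replicates 1 to 4 of the female whole body, against 3.45, 4.46, 4.32 and 3.93 in the male whole body. The means were 12.69 ± 0.83 in females and 4.04 ± 0.45 in males (SD, n = 4 each), a difference of 8.65. Against the limit the female level was at least 207-fold higher. The male whole-body arrays were all under the limit, but they lay between 1.09 and 2.09 above the lowest value of their arrays.

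214414_x_at was detected on all 4 female whole-body arrays, with levels of 8.46, 9.08, 5.99 and 5.04, against 2.74, 2.74, 2.88 and 2.80 in the male whole body. 211696_x_at had levels of 6.84, 7.64, 5.37 and 4.26 in the female whole body, reaching the limit on 3 arrays, against 2.40, 2.40, 2.36 and 2.40 in the male whole body. 209116_x_at had levels of 6.96, 7.68, 4.56 and 3.08 in the female whole body, reaching the limit on 2 arrays, against 2.57, 2.73, 2.41 and 2.41 in the male whole body. In all 3 the first 2 replicates were well above the others, and the sexes did not overlap. Their differences in mean were 4.35, 3.64 and 3.04. The lowest female array of 209116_x_at exceeded the highest male array by only 0.34.

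211745_x_at had levels of 5.46, 4.96, 4.34 and 4.64 in the female whole body, against 3.05, 2.87, 3.10 and 3.05 in the male whole body. 209458_x_at had levels of 5.28, 5.10, 3.13 and 3.48 in the female whole body, against 2.80, 2.80, 2.78 and 2.68 in the male whole body. By the rule of 3 arrays neither was detected in the female whole body, although the sexes did not overlap for either. Their differences in mean were 1.83 and 1.48. Of the 5876 probe sets tested in the whole body, 1791 (30.5%) were called higher in females, and of the 6 described here 3 passed the filter and were called: 32052_at, 214414_x_at and 211696_x_at. As in the midgut, this count follows from the selection, and the 3 that passed the filter did so through their female arrays alone. Of all 22761 probe sets, 2077 were at least 1 higher in the female whole body without overlap of the sexes, all 6 among them.

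Midgut and whole body were normalized apart, so setting them side by side calls for caution. Every female midgut array was higher than every female whole-body array for all 6 probe sets. The 6 were selected for high levels in these sample types, and the share of all probe sets with such a separation was not counted. The separation is therefore not read as a result about the 6. For 32052_at the female midgut mean exceeded the female whole-body mean by 1.96. For 209116_x_at, 211696_x_at and 214414_x_at the gaps were 5.19, 4.59 and 3.95, and for 211745_x_at and 209458_x_at they were 1.46 and 1.69. After quantile normalization of all arrays together the gap of 32052_at was 1.61, while those of the other 5 became wider, at 2.67 to 5.69. A difference in the size of a gap between probe sets can come from how each set responds to RNA, and it was not tested.

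The spread between replicates in the female whole body ran the same way in all 6 probe sets. Replicates 1 and 2 were above replicates 3 and 4 for 6 of 6, and replicate 2 was the highest for 4 of 6. Over the 5083 probe sets detected in the female whole body, 21.9% had replicates 1 and 2 above replicates 3 and 4. The whole range over the 4 female whole-body arrays was 1.12 for 211745_x_at, 1.84 for 32052_at and 4.60 for 209116_x_at, which corresponds to intensities between 8.43 and 204.8 for the last. In the female midgut, replicate 2 was the highest for 6 of 6, against 21.1% of the 3519 probe sets detected there. These shares are descriptions, since the 6 probe sets may read related RNA and are then not independent of each other.

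**Figure D2:**
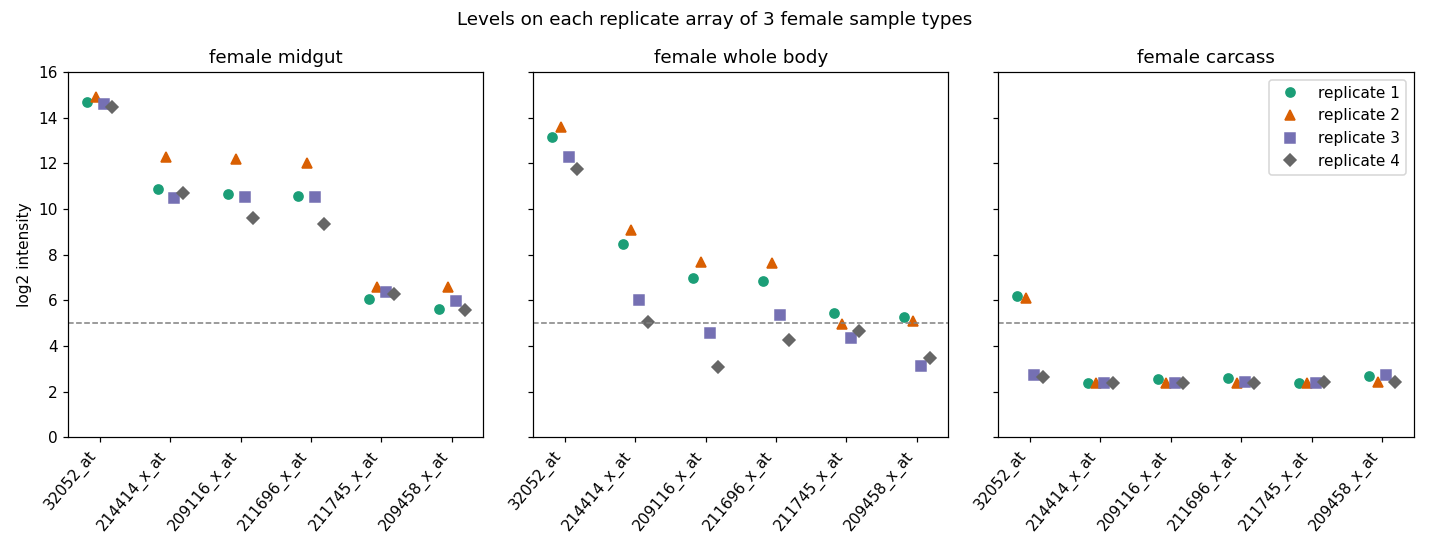
Log2 intensity of the 6 probe sets along the x axis on each replicate array (symbols) of the female midgut, the female whole body and the female carcass; the dashed line is the detection limit of log2 5. Replicate 2 is the highest for all 6 in the midgut, replicates 1 and 2 lie above replicates 3 and 4 for all 6 in the whole body, and in the carcass 32052_at is above the limit in replicates 1 and 2 only.

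The probe sets were not selected on a sex difference in the carcass, head, Malpighian tubules or salivary gland, and the female minus male difference was examined there. Low levels in these tissues may still follow in part from selecting the probe sets on their levels in the female midgut and whole body. None of the 6 was detected in either sex of any of these tissues, so none entered the comparison of detected probe sets. When all 22761 probe sets were fitted without a filter, 0 of 6 were called higher in females in each of the 4 tissues by limma, and the unadjusted p was under 0.05 for 0 of the 24 differences, with 0.102 the lowest. The share of all probe sets called higher in females in these unfiltered fits was 2.32% in the carcass, 0.694% in the head, 0.958% in the Malpighian tubules and 2.18% in the salivary gland. Of the 22761, limma gave an unadjusted p under 0.05, in either direction, to 3641 in the carcass and 2024 in the head. The counts were 2619 in the Malpighian tubules and 3187 in the salivary gland. Most of the levels of the 6 were at or close to the lowest value of the array, where a small difference cannot be resolved. The absence of calls among the 6 is therefore not read as a result.

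In the carcass 32052_at behaved differently from the other 5. It had levels of 6.19, 6.12, 2.72 and 2.66 in replicates 1 to 4 of the female carcass, against 2.65, 2.82, 2.73 and 2.67 in the male carcass. Replicates 1 and 2 of the female carcass were above the limit, and replicates 3 and 4 were in the range of the males. The difference in mean was 1.70 with a standard error of 0.97 (adjusted p = 0.553, limma without a filter). Leaving out replicate 4 brought the probe set past the filter, which then required 2 of 3 arrays, and it was called at a difference of 2.27 (adjusted p = 0.0476, with 15.2% of probe sets called). Leaving out replicate 3 gave 2.28 (adjusted p = 0.0507, with 14.6% called), so the call rested on which of the low arrays was kept. In both of these runs 32052_at passed the filter through replicates 1 and 2 of the female carcass alone, so neither adjusted p is read as support for a sex difference. The other 5 probe sets were between 2.39 and 2.74 in the female carcass, including replicates 1 and 2.

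The carcass arrays on which mosquito probe sets bright in the female midgut were high differed from set to set. Among the 10 probe sets with the most similar profiles, which are described with their values further on, 2 reached the limit in the female carcass. Ag.2L.166.0_CDS_a_at had levels of 2.55, 2.42, 7.68 and 2.42 in replicates 1 to 4 of the female carcass. Ag.2L.240.0_CDS_a_at had levels of 2.81, 2.69, 6.14 and 2.68 on the same arrays. Both were thus high in replicate 3, where 32052_at was low. Under the limit, Ag.2L.2854.2_s_at and Ag.3R.18.0_CDS_at were highest in replicate 1, at 4.41 and 4.02, where 32052_at was also high, and Ag.2L.172.1_a_at in replicate 3, at 4.24. The part of gut material in the carcass levels of 32052_at was not tested. Replicates 1 and 2 of the whole body and of the carcass carry the same numbers, but the labels do not say that equal numbers mark the same mosquitoes.

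In the salivary gland, 32052_at had levels of 2.74, 3.64, 2.88 and 2.91 in females and 3.90, 2.74, 2.80 and 2.73 in males. One array of each sex stood above the others, all were under the limit, and the difference in mean was 0.001 with a standard error of 0.34 (adjusted p = 1, limma without a filter). On the female arrays of this tissue Ag.2L.166.0_CDS_a_at was at 2.95, 5.93, 3.91 and 7.83, and no other of the 6 probe sets was above 2.84 on any female array. In the head, 32052_at was at 2.63, 2.40, 2.40 and 2.40 in females and at 2.40 on all 4 arrays in males. In the Malpighian tubules it was at 2.38, 2.43, 2.77 and 2.38 in females and at 2.38 on all 4 arrays in males.

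Ovary and testis gave no level above background for any of the 6. 32052_at was at 2.38 on all 4 ovary arrays, 0.00744 above their lowest value, and at 2.40, 2.36, 2.36 and 2.36 in the testis. Outside the female midgut and the female whole body, the 5 probe sets ending in _x_at gave 260 values on 52 arrays, which ran between 2.35 and 3.70. None of the 260 reached the limit, and 203 of them were within 0.1 of the lowest value of their array. 32052_at reached the limit on 6 of these 52 arrays, the 2 of the female carcass and all 4 of the male accessory gland.

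The male accessory gland, a tissue of males not fed on blood that makes seminal fluid proteins, held 32052_at at 5.68 on each of its 4 arrays. The 4 values differed by less than 0.001, whereas the 3503 probe sets at or above the limit on all 4 arrays of this tissue included only 8 with so narrow a spread. Another 7873 probe sets of this tissue with so narrow a spread were not at or above the limit on all 4 arrays, and 6822 of them were within 0.1 of the lowest value of each array. The other 5 probe sets were between 2.40 and 2.60 there. What sets the level of 32052_at in this tissue was not tested.

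Ordered by mean level, 32052_at ran from the female midgut through the female whole body, the male accessory gland, the female carcass and the male whole body to the salivary glands and the male midgut. The first 3 of these did not overlap. The range of the female carcass, with 2 high and 2 low arrays, took in the levels of both the male accessory gland and the male whole body. For each of the other 5 the female midgut was first and the female whole body came next. The female whole body overlapped the male midgut in the case of 209116_x_at and 209458_x_at. Across the 15 group means the profiles of the 6 were alike, with Pearson's r between 0.906 and 0.995 over the 15 pairs. This r rests mostly on the 2 high groups and is given as a description.

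The background for these values was the other 284 plain-number probe sets. In the midgut their median female minus male difference was 0, and 7 of 284 were at least 1 higher in females, against 3.02% of all probe sets; 1 was at least 1 lower. Just outside the 6, 204018_x_at and 211699_x_at had differences of 1.89 and 1.66, where the smallest among the 6 was 2.57. 204018_x_at had levels of 4.64, 6.09, 4.25 and 4.81 in the female midgut, against 2.73, 2.58, 3.47 and 3.47 in the male midgut. 211699_x_at had levels of 5.02, 6.31, 4.99 and 4.24 in the female midgut, against 3.48, 3.49, 3.48 and 3.48 in the male midgut. Like the 6, both were highest in replicate 2 of the female midgut, and neither met the detection rule.

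The same pair was also the next in the whole body. 211699_x_at had levels of 5.34, 4.63, 4.10 and 3.21 in the female whole body, against 3.33, 3.11, 3.09 and 3.11 in the male whole body. 204018_x_at had levels of 4.65, 3.99, 3.05 and 2.86 in the female whole body, against 2.74, 2.72, 2.72 and 2.75 in the male whole body. Replicates 1 and 2 were again above replicates 3 and 4. For the other 282, the whole-body differences ran between -0.26 and 0.16. Of the 7 with a midgut difference of at least 1, 6 end in _x_at, an ending carried by 23 of the 284. On replicate 2 of the female midgut 6 of the 284 reached the limit, against 1 or 2 on the other female midgut arrays and 1 to 3 on the male midgut arrays.

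**Figure D3:**
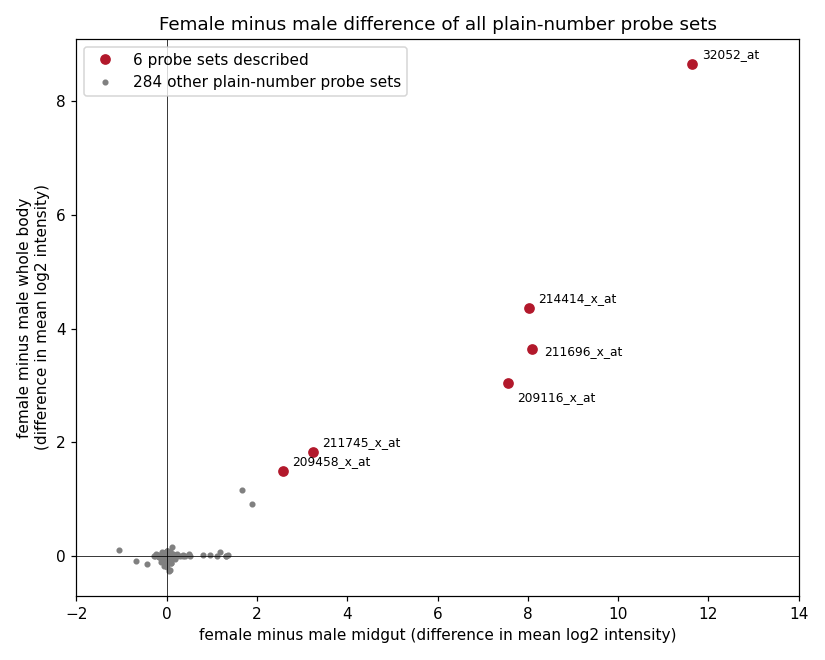
Female minus male difference in mean log2 intensity (n = 4 each) in the midgut (x axis) and in the whole body (y axis) for all 290 plain-number probe sets; red points are the 6 described and grey points the other 284. The 6 lie at 2.57 to 11.65 in the midgut and 1.48 to 8.65 in the whole body, and the nearest grey points are 204018_x_at and 211699_x_at.

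Only 1 of the 284, 209670_at, met the detection rule in any group, and it did so in both sexes. It had levels of 5.41, 5.32, 5.32 and 5.32 in the female midgut and was at 5.32 on all 4 male midgut arrays. Its group means ran between 4.30 and 5.34 outside the testis, where it was at 2.35. It thus showed no difference between the sexes of the kind seen in the 6. Together with the 6, it made 7 plain-number probe sets detected in the female midgut. The array also carries 13 control probe sets with HUM or HSAC in their identifiers. Their female minus male differences in the midgut ran between -0.02 and 0.46, and none was detected there in either sex. Among the 4506 malaria parasite probe sets, 1 was at least 1 higher in the female midgut and 1 in the male midgut, and 2 were detected in each sex.

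Among the 8719 probe sets with group means spanning at least 2, the 10 most like the mean profile of the 6 had Pearson's r between 0.955 and 0.988 over the 15 groups. Of these, 9 are mosquito probe sets, with identifiers beginning with Ag, and the other is 204018_x_at. No gene could be assigned to them, and nothing is read from the likeness, which any probe set high in those 2 groups would share. Ag.2L.172.1_a_at was first (r = 0.988). It had levels of 10.97, 12.75, 12.14 and 11.10 in the female midgut, and its male midgut mean was 3.84 ± 0.09. In the female whole body it was at 7.77, 7.40, 6.14 and 6.13. Ag.3L.390.0_CDS_at followed (r = 0.985), with 9.29, 11.16, 8.59 and 7.95 in the female midgut and a male midgut mean of 2.68 ± 0.04 (SD, n = 4).

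Ag.2L.166.0_CDS_a_at (r = 0.971) averaged 14.37 ± 0.18 in the female midgut and 2.62 ± 0.10 in the male midgut. Its female whole-body mean was 10.45 ± 0.67, against a male mean of 2.40 ± 0.04. Ag.2L.240.0_CDS_a_at (r = 0.981) averaged 13.79 ± 0.24 in the female midgut and 3.18 ± 0.30 in the male midgut (SD, n = 4 each). Both were at or above the limit on 2 of 4 female salivary gland arrays and on 1 female carcass array, where the 5 sets ending in _x_at were at 2.84 or below. The remaining mosquito sets were Ag.2L.2854.2_s_at, Ag.2R.2566.0_CDS_at, Ag.3R.18.0_CDS_at, Ag.3L.254.1_CDS_a_at and Ag.3R.945.0_CDS_at.

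The order of the replicates was less uniform in these 10 than in the 6. In the female whole body 4 of the 10 had replicates 1 and 2 above replicates 3 and 4, and 2 of the 10 ran the other way, against 6 of 6 and 0 of 6. Ag.2L.2854.2_s_at, one of those that ran the other way, had levels of 5.66, 5.52, 6.60 and 6.28 in the female whole body. In the female midgut 6 of the 10 were highest in replicate 2, against 6 of 6. The difference between the 2 sets of probe sets was not tested.

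**Figure D4:**
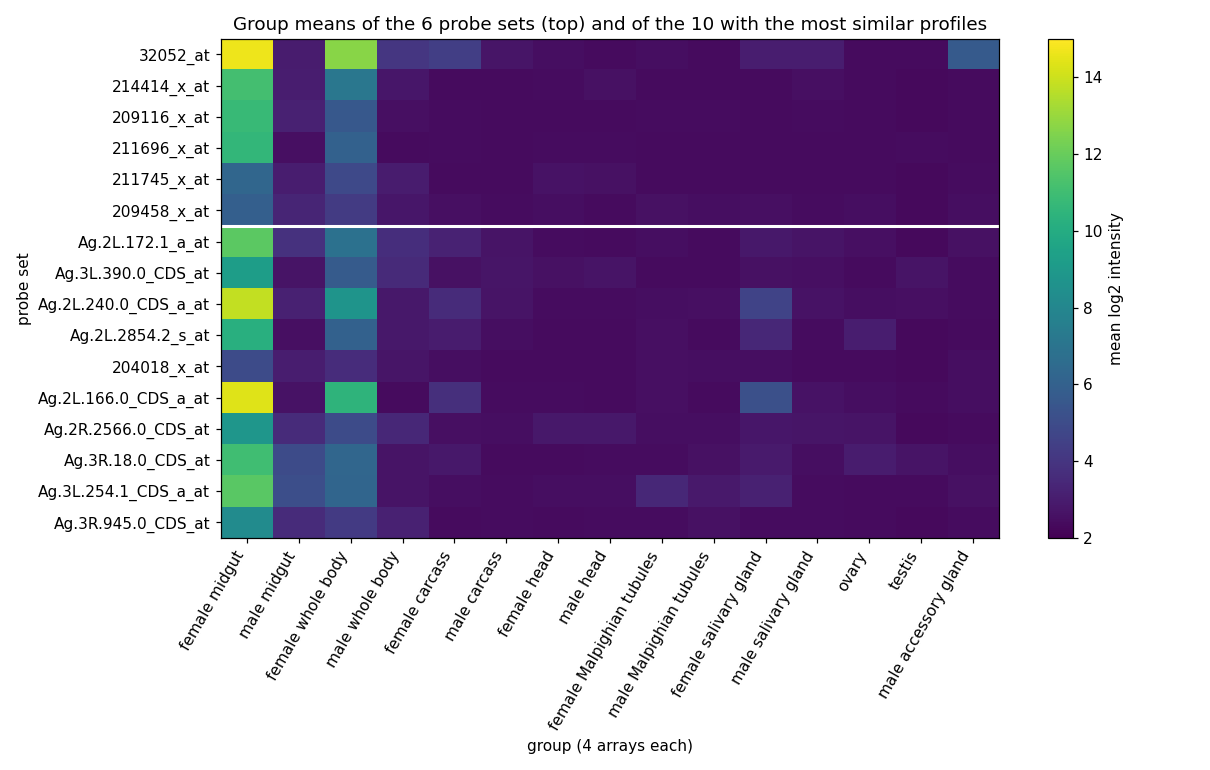
Mean log2 intensity (colour scale) in each of the 15 groups along the x axis for the 6 probe sets, above the white line, and the 10 probe sets with the most similar profiles, below it (n = 4 arrays per group). All 16 rows are brightest in the female midgut and next in the female whole body, and 32052_at alone has a bright cell in the male accessory gland.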

How the data were processed

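RNA from adult *Anopheles gambiae* tissues (50 ng of total RNA per sample, two-cycle labelling) was hybridised to 60 Affymetrix arrays. Per the labels, the authors deposited GCRMA intensity values on a linear scale (no version given), and the methods state that they were normalized within tissues. The presence calls of the authors, which compared matched and mismatched probes, were not used here, and the limit of log2 5 (intensity 32) on at least 3 of 4 arrays stands in for them. The table was checked: it holds 22761 probe sets, 9 different lowest intensities, and array medians between 5.32 and 5.75. The files give no read counts or depth, so that precision rests on the 4 arrays of a group.

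Intensities were taken as log2. Females and males of a tissue were compared by limma (version 3.58.1, run in R 4.3.3), using lmFit and eBayes. P-values were adjusted after Benjamini-Hochberg across the probe sets detected in either sex. A call needed a log2 difference of 1 or more together with an adjusted p below 0.05. A fold against an undetected group set its arrays to the limit. P-values set a difference against the spread between pooled replicates, with the variance of each probe set drawn by eBayes towards that of all probe sets tested. The model was also run on simulated data, with normal noise around the carcass means of detected probe sets. That setting does not cover levels near the lowest value of an array. Descriptive values and plots were made in Python 3.11.15 with numpy 2.4.6, matplotlib 3.10.9 and pandas 2.3.3.

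The 6 probe sets and all lists were chosen with earlier results of these data known. The probe sets named are the 6, any other plain-number probe set detected in a group, and the 10 whose 15 group means correlated best with the mean profile of the 6, among those spanning at least 2; the runners-up by midgut difference were named after their values were seen. Lists of 25 vertebrate blood genes, 13 mosquito blood-meal genes and 4 gut and fat-body markers had been set down, but no table used here pairs probe sets with genes, so 0 of 22761 identifiers matched and the lists give no value. Alternatives were quantile normalization of all arrays, limits of log2 4 and 6 or none, detection on all 4 arrays, variances fitted with trend and robust options, a block for the replicate number, all arrays in one fit, and each replicate left out in turn.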

Additional observations from a re-analysis of the deposited data

Results flagged for a closer look

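The level of 32052_at in replicate 1 of the male salivary gland was 3.8973, whereas replicates 2, 3 and 4 were at 2.74, 2.80 and 2.73, and this single array stood far from the other 3 by Dixon's criterion. It remained under the limit of log2 5. Of the 90 combinations of probe set and group examined, 33 passed the criterion. The other 32 had a whole range under 0.5, at most 0.44, and 31 of them were under the limit on all 4 arrays, 20 within 0.1 of the lowest value of their arrays. The exception was 32052_at in the male accessory gland, at 5.68 on all 4 arrays, where 3 of them held the same value and the whole range was 5.7e-05. Chance alone would flag about 1 in 20 groups of separate values.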

How the results depend on the processing

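The female minus male differences in the midgut and the whole body kept their direction for all 6 probe sets after quantile normalization and with each replicate left out (60 of 60 values above 0, between 1.02 and 11.70). This follows from the selection. The sexes did not overlap in either sample type, so leaving out a replicate could not have reversed the direction of these differences. Quantile normalization of all arrays moved 2 of these differences by more than 1 SD of the replicates: 32052_at in the midgut was at 10.95 in place of 11.65, and 211745_x_at in the whole body at 1.29 in place of 1.83. It moved the median probe set of an array by between -0.03 and 0.02. Without a filter, the count of probe sets called higher in females was 158 in place of 294 in the head and 218 in place of 344 in the Malpighian tubules; the cause was not tested. The count of plain-number probe sets detected in the female midgut was 7, with 5 at a limit of log2 6 and 10 at log2 4. In the whole body 3 of the 6 were tested and called in the comparison of detected probe sets, 2 after quantile normalization, 5 at a limit of log2 4, 1 at log2 6 and 4 of 6 tested without a filter. Over all probe sets tested there, 1572 of 5065 were called higher in females after quantile normalization and 2033 of 7094 at log2 4. At log2 6 these were 1455 of 4638, and without a filter 2006 of 22761. The counts of the 6 follow from their selection and from the filter, and are not read as support. Leaving out each replicate in turn gave 526 to 634 probe sets higher in the female midgut (575 with all), 1777 to 1870 in the whole body (1791 with all) and 5 of the 6 in the whole body without replicate 3 or without replicate 4. Over all probe sets tested in the whole body, 1861 of 6026 were called without replicate 3 and 1870 of 6037 without replicate 4. In the labels, samples of the 2 sexes share only a replicate number, although the methods describe the males as siblings dissected in parallel. Over the 24 same-numbered pairs the correlation of their deviations ran between -0.24 and 0.43, and it was over 0.1 for 13 of them. With a replicate block, 580 probe sets were called in the midgut, 1792 in the whole body, 682 in the carcass and 292 in the head, and none of the 6 changed its call. Levels near the lowest value of an array limit any smaller difference.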
